A study of Mus musculus with 2 samples.

Results

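Endothelial cells line the blood and lymphatic vessels of the colon. In droplet single-cell RNA sequencing of mouse colon, 50 of 1139 kept cells were of this type. They were chosen by their counts of unique molecular identifiers (UMIs, each standing for 1 captured RNA molecule). A kept barcode had at least 1000 UMIs, at least 200 genes and under 15% mitochondrial UMIs. It was counted as endothelial when Pecam1, Cdh5, Cldn5, Flt4, Mmrn1 and Kdr together gave at least 3 UMIs and Epcam and Ptprc, markers of epithelial and blood-derived cells, together gave at most 1. An endothelial cell was lymphatic when Mmrn1, Lyve1, Flt4 and Ccl21a gave at least 3 UMIs, and blood vascular otherwise. By this rule the THC library held 13 lymphatic and 6 blood vascular cells, and the vehicle library held 25 lymphatic and 6 blood vascular cells.

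The THC library came from colon of wild-type C57BL/6 mice given 10 mg/kg of THC (Δ9-tetrahydrocannabinol, the main psychoactive cannabinoid of cannabis), and the vehicle library from wild-type C57BL/6 mice given vehicle. The epithelium had been loosened with EDTA, the tissue digested with collagenase D, DNAse and Dispase, and lamina propria cells enriched on Percoll before capture with the 10x Genomics 5' kit. Each group was 1 library, and the labels do not say how many mice it came from. No difference between THC and vehicle could therefore be tested, and every interval below is a 95% interval for counting error only. The handling of each library and the treatment cannot be told apart.

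Blood vessels exchange gas, nutrients and lipids with the tissue and let leukocytes out through venules, where selectins and adhesion molecules slow and hold them. Lymphatic vessels take up tissue fluid, absorbed dietary fat and migrating immune cells. Lymphatic identity is set by the transcription factor Prox1, growth is driven through Flt4 (VEGFR3, the receptor of VEGF-C), and the chemokine Ccl21a draws dendritic cells and T cells into the vessel.

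Endothelial cells made up 4.36% of kept THC cells (19 of 436, exact Clopper-Pearson interval 2.64 to 6.72%) and 4.41% of kept vehicle cells (31 of 703, 3.02 to 6.20%). The shares differed by far less than their counting error. Lymphatic cells were 68.4% of endothelial cells after THC (13 of 19, interval 43.4 to 87.4%) and 80.6% after vehicle (25 of 31, 62.5 to 92.5%), and these intervals overlapped. The median endothelial cell had 5066 UMIs and 2073 genes in the THC library, against 5732 UMIs and 2090 genes in the vehicle library. Mitochondrial UMIs had a median of 2.03% in THC endothelial cells and 1.76% in vehicle endothelial cells, below the medians of the other kept cells, 4.62% with THC and 4.61% with vehicle. No kept barcode was shared by the libraries.

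The edge of the rule was sparsely filled. Of kept cells with exactly 3 UMIs of the selecting genes, 1 THC cell and 1 vehicle cell were members. With 2 UMIs of those genes, 2 vehicle cells and 0 THC cells lay just outside, and 1 of these vehicle cells had 14 UMIs of the lymphatic genes. A THC cell with 17 selecting UMIs was left out for 16 Epcam UMIs, and a vehicle cell with 3 for 4 Ptprc UMIs. No endothelial cell had 1 or 2 UMIs of the lymphatic genes. The blood vascular cells had 0 of them, and the lowest lymphatic cell had 37 in the THC library and 5 in the vehicle library.

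**Figure D1:**
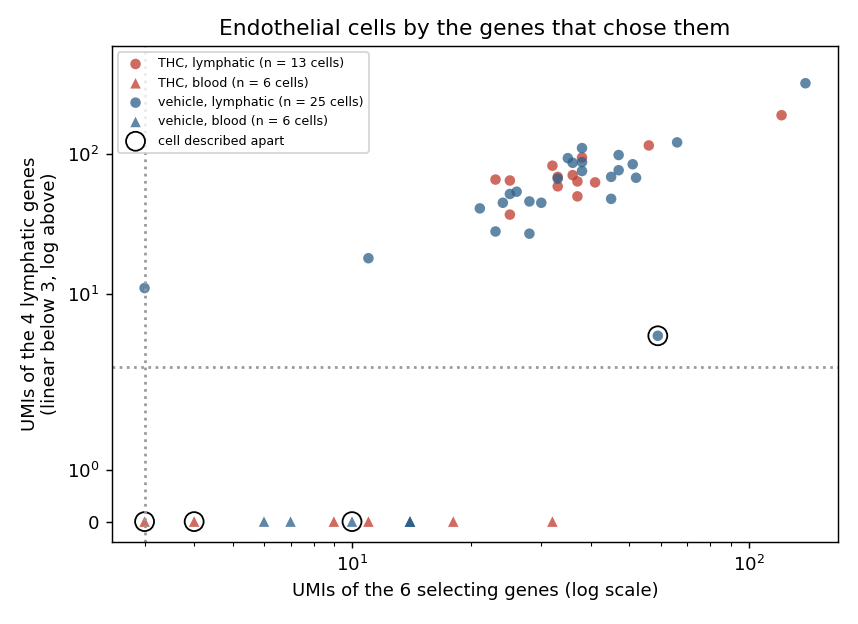
Each point is 1 of the 50 endothelial cells, placed by its UMIs of the 6 selecting genes (x, log scale) and of the 4 lymphatic genes (y, linear below 3 and log above), with dotted lines at the limits of 3 UMIs and rings round the 4 cells described apart. The blood vascular cells sit at 0 on the y axis, and the ringed lymphatic cell sits below the other lymphatic cells at 5 UMIs.

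Of the 50 cells, 4 stood apart from their label. The THC blood vascular cell with the most UMIs (16243) had 418 UMIs of the fibroblast list, 358 of them Dcn, a proteoglycan of fibroblasts, and 49 of the epithelial list. Its 4 selecting UMIs were 3 of Pecam1 and 1 of Kdr, and it had 0 UMIs of Cdh5, Plvap, Flt1 and Egfl7. A second THC blood vascular cell (3454 UMIs) had 61 UMIs of Cd74 and 12 of Cd79a, genes of B lymphocytes, with 3 UMIs of Pecam1 and 0 of Cdh5, Kdr and Flt1. Both go against the endothelial label. A vehicle blood vascular cell (7477 UMIs) had 45 UMIs of the smooth muscle and pericyte list, 18 of them Rgs5, beside 3 of Cdh5 and 91 of Fabp4. A vehicle cell (11837 UMIs) was placed as lymphatic by 5 UMIs of Flt4 alone. It had 0 UMIs of Mmrn1, Lyve1, Ccl21a, Prox1, Reln and Fgl2, and it had 14 of Flt1, 85 of Fabp4 and 23 of Sox17. With 20 UMIs of Pecam1 and 17 of Cdh5, it went against the lymphatic label but not the endothelial one. For the comparison of THC with vehicle, values without these 4 cells are given where a call or a direction changes. Such values also leave out vehicle cells with endothelial genes, so they are an alternative and not a correction. Without the 3 cells that carried another class's markers, the endothelial share was 3.92% with THC and 4.27% with vehicle.

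Markers of other classes were otherwise low. In lymphatic cells the fibroblast list (10 genes) summed to 1 THC UMI and 3 vehicle UMIs, the epithelial list (10 genes) to 0 and 8, and the smooth muscle and pericyte list (12 genes) to 8 and 19. The lymphocyte list (10 genes) summed to 6 UMIs in THC lymphatic cells and 14 in vehicle lymphatic cells, all of them Cd2. The glial and neuronal list was at 0 in every endothelial cell.

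The endothelial label held for the cells as a whole. Of 25 endothelial identity genes outside the rule, 23 reached 20 UMIs over the endothelial cells, and 22 of these were at least 4-fold higher in endothelial than in other kept cells in each library. That fold was reached by 383 of the 2563 genes with at least 20 UMIs (14.9%). The cells were selected on endothelial genes, and the limit of 20 UMIs was set on these cells alone. The counts are therefore a description and were not tested. Egfl7, a protein that endothelial cells secrete, stood at 985 CPM (UMIs per 1000000 UMIs of that class and library) in THC endothelial cells, against 2.89 CPM in other kept THC cells, and at 1164 CPM in vehicle endothelial cells, against 0.946 CPM in other kept vehicle cells. Emcn (endomucin), a surface sialoglycoprotein of endothelium, stood at 557 CPM in THC endothelial cells, against 1.03 CPM elsewhere, and at 643 CPM in vehicle endothelial cells, against 0.315 CPM elsewhere.

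The 10 genes with the highest endothelial ratios, taken by the lower of the libraries, were Tbx1, Gpihbp1, Lcn2, Reln, Mmrn2, Btnl9, Klhl4, Tie1, Selp and Adgrg3. Gpihbp1 anchors lipoprotein lipase on the endothelial surface. It gave 76 UMIs in THC endothelial cells, against 1 in the other 417 THC cells, and 114 in vehicle endothelial cells, against 2 in the other 672 vehicle cells. Tbx1, a T-box transcription factor, gave 31 THC and 28 vehicle UMIs in endothelial cells and 0 elsewhere. Against the floor of 3 UMIs over the other cells, it was at least 428-fold higher with THC and at least 315-fold higher with vehicle. Lcn2, a siderophore-binding lipocalin that is best known from neutrophils and inflamed epithelium, gave 136 UMIs in THC endothelial cells, against 0 in other kept THC cells. In the vehicle library it gave 239 UMIs in endothelial cells, against 5 in other kept cells.

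**Figure D2:**
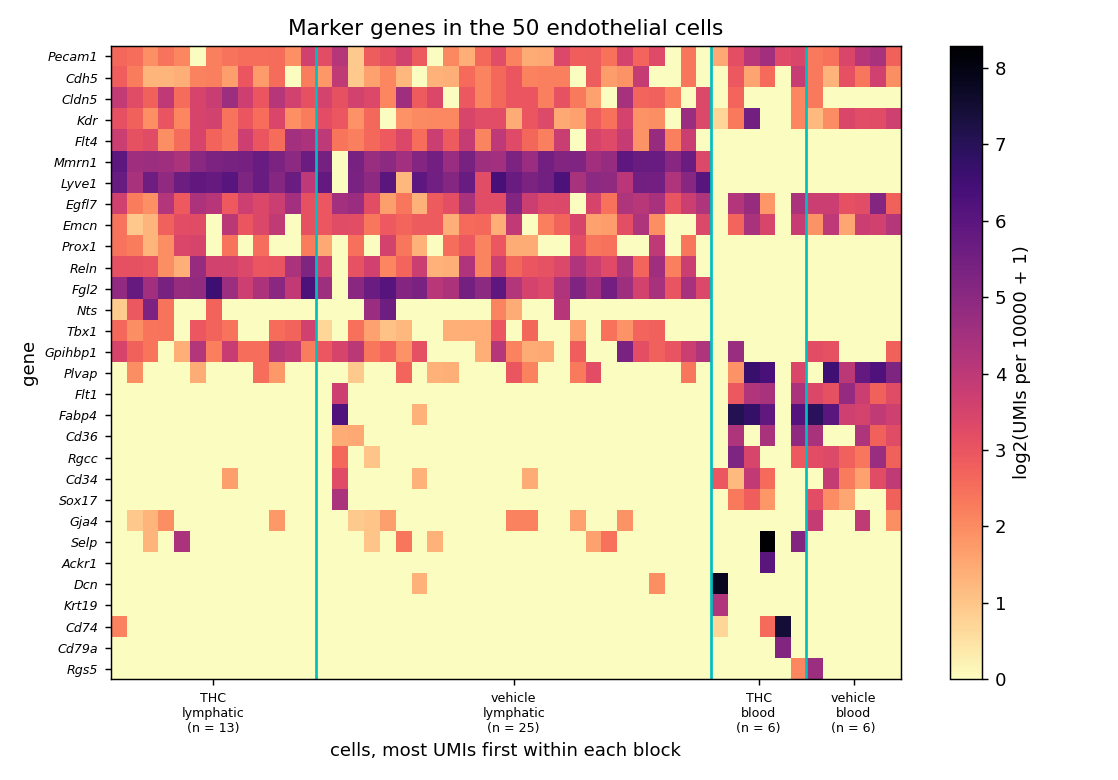
Each column is 1 endothelial cell and each row a marker gene, with colour giving log2(UMIs per 10000 + 1). Mmrn1, Lyve1 and Fgl2 fill the lymphatic columns except 1 vehicle column that instead shows Flt1, Fabp4 and Sox17, and 1 THC blood vascular column shows Dcn and Krt19 while another shows Cd74 and Cd79a.

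Lymphatic cells carried their genes as abundant transcripts. Mmrn1, an extracellular multimerin, ran from 19.4 to 59.0 UMIs per 10000 over the 13 THC lymphatic cells (median 38.2) and from 0 to 60.5 over the 25 vehicle lymphatic cells (median 34.2). Lyve1, a hyaluronan receptor, ran from 15.1 to 65.3 in THC cells (median 48.4) and from 0 to 83.9 in vehicle cells (median 39.2). Ccl21a, whose 2 rows in the gene table were summed because near-identical copies share reads, ran from 17.4 to 88.9 in THC cells (median 41.0) and from 0 to 87.9 in vehicle cells (median 26.6). The vehicle cell at 0 for all 3 was the cell placed by Flt4 alone. These genes chose the cells, so their levels are a description.

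Genes outside the rule followed the same division. Of 16 lymphatic identity genes, 14 reached 20 UMIs. Of these, 11 were at least 4-fold higher in lymphatic than in blood vascular cells in each library. That fold was reached by 100 of all 2563 genes (3.9%). Both counts rest on the fraction of a UMI added to each count. With blood vascular cells at 0 set to 3 UMIs, Fgl2, Reln, Cp and Nts stayed past 4-fold in each library. Prox1, Pdpn, Stab1, Maf, Tbx1, Sema3d and Ackr2 fell short of it in the vehicle library. Their vehicle bounds ran from 1.06-fold for Ackr2 to 3.39-fold for Prox1. The 100 genes were not recounted in this way. Fgl2, a fibrinogen-like secreted protein, gave 278 UMIs in THC lymphatic cells, against 0 in THC blood vascular cells. In the vehicle library it gave 442 UMIs in lymphatic cells and 0 in blood vascular cells. With the blood vascular cells set to 3 UMIs, Fgl2 was at least 47.3-fold higher in lymphatic cells with THC and at least 29.4-fold higher with vehicle. It was not restricted to vessels, with 216 CPM in THC stromal cells and 273 CPM in vehicle stromal cells. Reln (reelin, a secreted glycoprotein of lymphatic collectors as well as neurons) gave 78 UMIs in THC lymphatic cells and 130 in vehicle lymphatic cells, all blood vascular cells being at 0. Prox1 gave 29 UMIs in 9 of 13 THC lymphatic cells and 51 UMIs in 16 of 25 vehicle lymphatic cells. The blood vascular cells had 0 Prox1 UMIs, which allows up to 76.1 CPM with THC and 96.0 CPM with vehicle, so absence cannot be read from them.

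A UMI in a cell is partly a matter of depth and of free RNA. Prox1 gave a UMI in 69.2% of THC lymphatic cells, against 3.82% of THC epithelial cells, which should lack most vascular genes and had a median of 17590 UMIs, against 5492 in THC lymphatic cells. The share was 64.0% of vehicle lymphatic cells, against 3.88% of vehicle epithelial cells (median UMIs 5765 in lymphatic and 13764 in epithelial cells). With each cell thinned to 1000 UMIs, the Prox1 shares were 23.1% of THC and 16.0% of vehicle lymphatic cells and 0% of epithelial cells in either library. Whether the Prox1 UMIs of epithelial cells were free RNA or their own was not tested.

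The 10 genes highest in lymphatic over blood vascular cells were Fgl2, Lcn2, Fxyd6, Prelp, Reln, Cp, Lbp, Tgfbi, Nts and Abi3bp, and each of them was at 0 in blood vascular cells of both libraries. Fxyd6, a regulator of the sodium pump, gave 127 UMIs in THC and 186 in vehicle lymphatic cells. Cp (ceruloplasmin, the copper carrier of plasma) gave 63 in THC and 112 in vehicle lymphatic cells. Lbp, which binds bacterial lipopolysaccharide, gave 49 in THC and 111 in vehicle lymphatic cells.

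Lymphatic cells also differed among themselves. Nts, which encodes the gut peptide neurotensin, was found in 5 of 13 THC lymphatic cells and 5 of 25 vehicle lymphatic cells. The richest cell held 27 of 41 Nts UMIs in the THC library, where the next held 7. In the vehicle library 3 cells held 44, 24 and 9 of the 80. Tbx1 was spread more evenly, over 10 of 13 THC cells and 15 of 25 vehicle cells with at most 6 UMIs in any THC cell and at most 5 in any vehicle cell.

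Most blood vascular cells held Plvap, which forms the diaphragms of fenestrae and caveolae (4 of 6 THC cells and 5 of 6 vehicle cells), and Flt1, a VEGF receptor (4 of 6 THC cells and 6 of 6 vehicle cells). Capillary and lipid uptake genes separated them from lymphatic cells: 4 of 7 measured capillary genes and 5 of 7 measured lipid uptake genes were at least 4-fold higher in blood vascular than in lymphatic cells in each library, against 68 of all 2563 genes (2.65%). Fabp4 is on both lists, so the counts are not separate. Fabp4, a fatty acid carrier of capillary endothelium, gave 0 UMIs in THC lymphatic cells, against 199 in THC blood vascular cells. In the vehicle library it gave 86 UMIs in lymphatic cells, of which 85 were in the cell placed by Flt4 alone, against 152 in blood vascular cells. Cd36, a fatty acid transporter, gave 0 UMIs in THC lymphatic cells, against 31 in THC blood vascular cells, and 4 in vehicle lymphatic cells, against 29 in vehicle blood vascular cells. The genes highest in blood vascular over lymphatic cells also held Clu (clusterin), Slco2a1 (a prostaglandin transporter), Ly6a and Ly6c1 (surface antigens of a family of similar genes), Rarres2, Tmem176b, Tmem176a, Adgrg1 and Ifi203. All 40 THC UMIs of Rarres2 lay in the cell with the fibroblast genes. Gpihbp1, although on the capillary list, was also held by 12 of 13 THC lymphatic cells (57 UMIs) and 19 of 25 vehicle lymphatic cells (101 UMIs).

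**Figure D3:**
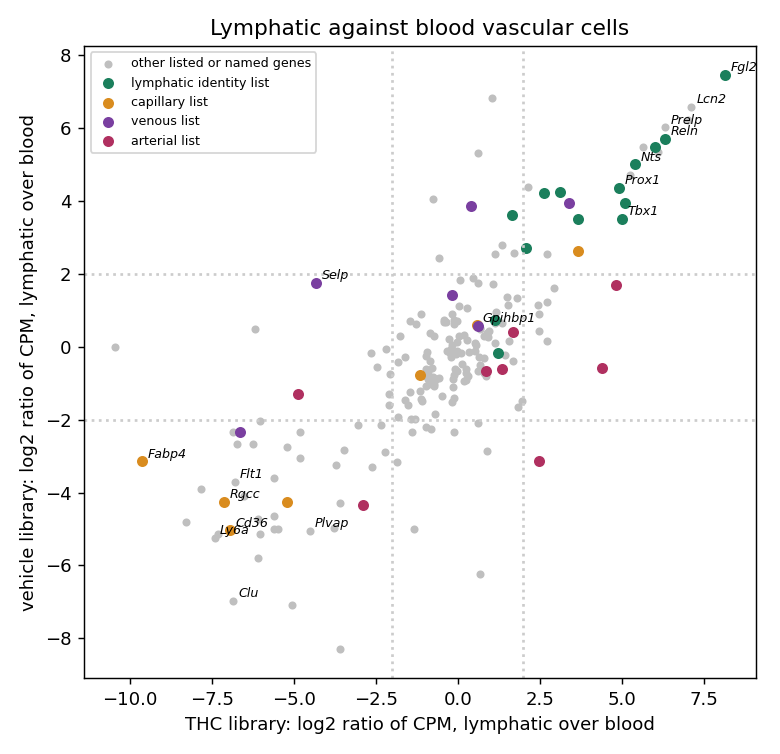
Each dot is a listed or named gene, placed by its log2 ratio of CPM in lymphatic over blood vascular cells in the THC library (x) and in the vehicle library (y), with 0.5 UMI added to each count and dotted lines at 4-fold. Lymphatic identity genes such as Fgl2, Reln and Prox1 lie at the upper right, Fabp4, Cd36, Plvap and Flt1 at the lower left, and Selp lies low on the THC axis and above 0 on the vehicle axis.

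With 6 blood vascular cells a library, the cells are best given 1 by 1. In the THC library, the cell with 7546 UMIs had 101 UMIs of Fabp4, 28 of Rgcc, 19 of Gpihbp1 and 14 of Cd36, all capillary genes. The cell with 5066 UMIs had 54 of Fabp4, 50 of Plvap, 23 of Kdr and 8 of Car4. The cell with 4010 UMIs had 125 of Selp (P-selectin, which starts leukocyte rolling), 25 of Ackr1 (a chemokine-binding receptor of venules) and 8 of Vcam1. The cell with 3108 UMIs had 21 of Fabp4 and 11 of Selp. Selp was thus held by 2 of the 4 THC cells left when the 2 cells that go against the label are set aside.

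In the vehicle library, Selp and Ackr1 were at 0 in each of the 6 blood vascular cells. The cell with 7477 UMIs, which also carried the pericyte genes, had 91 UMIs of Fabp4, 15 of Cd36 and 10 of Gja4, a connexin of arterial endothelium. The cell with 6702 UMIs had 61 of Plvap and 41 of Fabp4. The cell with 4848 UMIs had 27 of Plvap and 7 of Gja4, and the cell with 3540 UMIs had 26 of Plvap and 9 of Rgcc. The cells with 5166 and 3513 UMIs had 8 and 13 of Plvap. Vcam1 was at 0 in these 6 cells as well, but 6 cells cannot show that venules were absent.

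In the comparison of THC with vehicle, 98 of 2563 genes (3.82%) were at least 2-fold higher and 140 (5.46%) at least 2-fold lower in THC endothelial cells, by the ratio of CPM over the summed UMIs of each library. Summed UMIs were 116743 in THC and 188068 in vehicle endothelial cells. The balance of the directions depended on the scaling and on the cells that stood apart. It was 71 higher and 168 lower with edgeR's TMM factors, which moved all ratios by 0.09 on the log2 scale, 109 higher and 99 lower without the 3 cells with markers of another class, and 117 higher and 86 lower, of 2206 genes, without all 4 cells that stood apart. Which direction held more genes thus turned with these cells. Among lymphatic cells alone, 78 of 1954 genes (3.99%) were at least 2-fold higher and 105 (5.37%) at least 2-fold lower. The median log2 ratio over all genes was -0.04 in endothelial cells and 0.05 in lymphatic cells.

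The monocyte chemokine Ccl2 (ENSMUSG00000035385) was lower with THC. It gave 47 UMIs in THC endothelial cells and 283 in vehicle endothelial cells, a log2 ratio of -1.89 (interval -2.38 to -1.45). In lymphatic cells it gave 38 UMIs in THC cells and 283 in vehicle cells, at log2 -1.86 (-2.41 to -1.38). The THC UMIs lay in 2 of 13 lymphatic cells, with at most 35.3 UMIs per 10000 in a cell, while the vehicle UMIs lay in 11 of 25, with up to 168 UMIs per 10000. Most cells of either library were at 0, so the cells of the libraries overlapped. Thinned to 1000 UMIs a cell, Ccl2 was found in 7.69% of THC lymphatic cells and 40.0% of vehicle lymphatic cells, against 0% of THC and 0.431% of vehicle epithelial cells.

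Ccl7, a monocyte chemokine of the same family, gave 1 UMI in THC lymphatic cells and 100 in vehicle lymphatic cells, at log2 -5.05. The vehicle UMIs lay in 5 of 25 cells, and 1 of them held 52. Neither chemokine was particular to vessels. In stromal cells Ccl2 gave 1060 UMIs with THC and 2231 with vehicle (log2 -0.60, interval -0.70 to -0.49), and Ccl7 gave 258 with THC and 916 with vehicle (log2 -1.35, interval -1.55 to -1.15). In immune cells Ccl2 gave 12 UMIs with THC and 130 with vehicle, and Ccl7 gave 17 with THC and 118 with vehicle (log2 -1.80). The part of free RNA from those cells in the lymphatic values was not tested. Ccl2 gave 0 UMIs in THC and 6 UMIs in vehicle epithelial cells. Ccl7 gave 3 UMIs in THC and 64 UMIs in vehicle epithelial cells (log2 -3.97), the same direction as in lymphatic cells. Whether these Ccl7 UMIs were free RNA was not tested.

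Sgk1, a kinase induced by serum and glucocorticoids, was lower over many cells. It gave 42 UMIs in 14 of 19 THC endothelial cells and 185 in 27 of 31 vehicle endothelial cells, at log2 -1.44 (interval -1.97 to -0.96). Its median was 3.79 UMIs per 10000 in THC lymphatic cells and 8.04 in vehicle lymphatic cells, and 3.06 in THC blood vascular cells and 9.62 in vehicle blood vascular cells. The ranges overlapped, from 0 to 10.3 in THC lymphatic cells and from 0 to 31 in vehicle lymphatic cells. In stromal cells Sgk1 gave 116 UMIs with THC and 142 with vehicle, at log2 0.19.

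Ier5, an immediate early gene, gave 29 UMIs in THC and 153 in vehicle endothelial cells, at log2 -1.69 (interval -2.34 to -1.13). Its median was 1.91 UMIs per 10000 in THC and 7.22 in vehicle blood vascular cells. In blood vascular cells the lowest vehicle cell, at 5.65, was below the highest THC cell, at 8.69. In stromal cells Ier5 gave 567 UMIs with THC and 1002 with vehicle, at log2 -0.34. Igfbp3, a carrier of insulin-like growth factors, gave 13 UMIs in THC and 103 in vehicle endothelial cells (log2 -2.25, interval -3.26 to -1.46), and 76.9% of the THC UMIs were in 1 cell. The interferon-induced Ifi27l2a gave 27 UMIs in THC and 129 in vehicle endothelial cells (log2 -1.55, interval -2.22 to -0.96), and nearly all were in lymphatic cells.

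Id1 and Id3 encode inhibitors of basic helix-loop-helix transcription factors and are induced in endothelium by bone morphogenetic proteins. Id3 gave 132 UMIs in THC and 504 in vehicle endothelial cells, at log2 -1.24 (interval -1.53 to -0.97). Id1 gave 31 UMIs in THC and 134 in vehicle endothelial cells, at log2 -1.41 (interval -2.04 to -0.85). A large share of the lymphatic difference lay in the vehicle cell placed by Flt4 alone, which held 139 Id3 UMIs and 35 Id1 UMIs. Without it, Id3 had a log2 ratio of -0.23 in lymphatic cells (interval -0.59 to 0.12), which includes 0, and Id1 had -0.97 (interval -2.19 to 0.01). Over all endothelial cells without the 4 cells that stood apart, Id3 had -0.51 (interval -0.83 to -0.21) and Id1 had -0.36 (interval -1.04 to 0.25). In blood vascular cells Id3 ran from 0 to 21.7 UMIs per 10000 with THC (median 8.02) and from 22.8 to 85.6 with vehicle (median 39.0), so that the 6 THC cells all lay below the 6 vehicle cells. That separation includes the 2 THC cells that go against the label, and it was found after the values were seen. Cells of 1 library are not replicates. The highest vehicle value was that of the cell with pericyte genes. It held 64 of the 147 Id3 UMIs and 29 of the 61 Id1 UMIs of vehicle blood vascular cells.

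Among the other genes lower with THC, the counts were small. Irf7, a transcription factor of interferon responses, and Sertad2 each gave 2 UMIs in THC and 23 in vehicle endothelial cells (log2 -2.54, interval -5.96 to -0.82). H2afx, a histone variant, gave 1 UMI in THC and 19 in vehicle endothelial cells (log2 -3.01, interval -8.94 to -0.91).

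Lrg1, a secreted leucine-rich glycoprotein of venous and inflamed endothelium, was higher with THC. It gave 62 UMIs in 12 of 19 THC endothelial cells and 36 in 11 of 31 vehicle endothelial cells, at log2 1.46 (interval 0.86 to 2.11). In lymphatic cells the log2 ratio was 1.34 (interval 0.68 to 2.02), with medians of 3.23 UMIs per 10000 with THC and 0 with vehicle. In blood vascular cells it gave 17 THC UMIs, in 3 of 6 cells, and 0 vehicle UMIs. Of these 17, 13 lay in the THC cell with 125 Selp UMIs. All other kept cells together gave 3 Lrg1 UMIs with THC and 4 with vehicle.

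Gbp2, an interferon-induced GTPase, gave 31 UMIs in THC and 15 in vehicle endothelial cells (log2 1.71, interval 0.80 to 2.73). The difference was opposite in direction to those of Irf7 and Ifi27l2a, which are also induced by interferons. Sbno2 gave 48 UMIs in THC and 37 in vehicle endothelial cells (log2 1.06, interval 0.41 to 1.72), and its ratio was 1.62 in lymphatic cells and -0.26 in blood vascular cells. Lars2, the mitochondrial leucyl-tRNA synthetase, gave 146 UMIs in THC and 128 in vehicle endothelial cells (log2 0.88, interval 0.53 to 1.23), with 1.21 in lymphatic cells and -0.14 in blood vascular cells.

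Of the remaining genes higher with THC, 5 rested on few UMIs. P3h4, of the collagen-modifying machinery of the endoplasmic reticulum, gave 15 UMIs in THC and 5 in vehicle endothelial cells (log2 2.18, interval 0.74 to 4.09). Without the 4 cells that stood apart it gave 8 in THC and 5 in vehicle endothelial cells, and the interval, -0.32 to 3.43, included 0. Pdhb, a subunit of pyruvate dehydrogenase, and the Golgi protein gene Tvp23b each gave 16 UMIs in THC and 6 in vehicle endothelial cells (log2 2.03, interval 0.68 to 3.74). Btbd3 gave 21 UMIs in THC and 11 in vehicle endothelial cells (log2 1.59), and Esyt2, which tethers the endoplasmic reticulum to the plasma membrane, gave 17 in THC and 9 in vehicle endothelial cells (log2 1.57). Fos gave 717 UMIs in THC and 742 in vehicle endothelial cells (log2 0.64, interval 0.49 to 0.79), but 38.6% of the THC UMIs were in the cell with the fibroblast genes. Without the 4 cells that stood apart, Fos had a log2 ratio of 0.13, with an interval of -0.05 to 0.30.

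**Figure D4:**
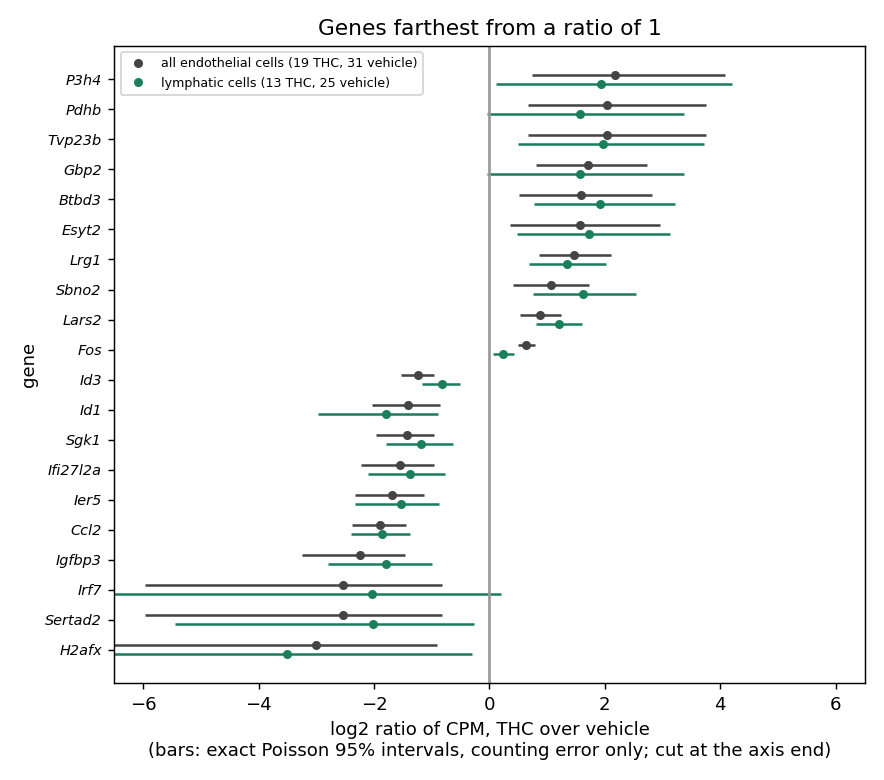
Points give the log2 ratio of CPM, THC over vehicle, of the 20 named genes in all endothelial cells (black) and in lymphatic cells (green), with bars for exact Poisson 95% intervals of counting error. Ccl2, Igfbp3, Ier5, Ifi27l2a and Sgk1 lie below 0 in both sets, Lrg1 lies above 0 in both, and Fos and Id3 lie nearer to 0 in lymphatic cells.

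Counts of list members past 2-fold are to be read against all genes, of which 3.82% were at least 2-fold higher and 5.46% at least 2-fold lower. With lists of this size, 1 gene is near that background. Counts of list members above or below 0 are to be read against the median over all genes, which has as many genes above as below. It was -0.04 in endothelial cells and 0.05 in lymphatic cells. Of 23 measured endothelial identity genes, 1 was at least 2-fold higher with THC and 0 were at least 2-fold lower, with a median log2 ratio of -0.03, or 0.21 without the 4 cells that stood apart. The gene past the limit was Tek (Tie2, the receptor of angiopoietins), with 15 UMIs in THC and 10 in vehicle endothelial cells (log2 1.25, interval 0.02 to 2.59). S1pr1, a receptor of sphingosine 1-phosphate, gave 20 UMIs in THC and 55 in vehicle endothelial cells (log2 -0.75, interval -1.59 to -0.01), and its interval included 0 without the 4 cells (log2 -0.35, interval -1.21 to 0.42). Of 14 measured lymphatic identity genes, 0 passed 2-fold in either direction over all endothelial cells (median -0.04). The median turned to 0.10 without the 4 cells, again with 0 past 2-fold. In lymphatic cells alone their median was 0.31, with 12 of 13 above 0, 1 of 13 at least 2-fold higher and 0 lower. It was 0.24 without the cell placed by Flt4 alone. Tbx1, the gene past 2-fold, gave 31 UMIs in THC and 28 in vehicle lymphatic cells (log2 1.16).

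Genes of the vessel segments differed along with the few blood vascular cells. Of 8 measured arterial genes, 0 were at least 2-fold higher with THC and 4 at least 2-fold lower (Gja4, Sox17, Cxcl12 and Hey1), with a median of -0.90. These calls rested on the cells that stood apart: of 34 vehicle Sox17 UMIs, 23 were in the cell placed by Flt4 alone and 6 in the cell with pericyte genes, which also held 10 of 28 vehicle Gja4 UMIs. With the 4 cells left out, 0 of 7 measured arterial genes were past 2-fold and the median was -0.24, and Sox17, at 7 UMIs in THC and 5 in vehicle endothelial cells, was no longer measured. Of 6 measured venous genes, 3 were at least 2-fold higher (Ackr1, Selp and Lrg1) and 0 lower, with a median of 0.96. Of 7 measured capillary genes, 0 passed 2-fold in either direction (median 0.41), but without the 4 cells 3 of 6 were at least 2-fold higher (median 0.94). These calls, too, turned on the cells left out. Of 238 vehicle Fabp4 UMIs, 85 were in the cell placed by Flt4 alone and 91 in the cell with pericyte genes. The THC cells left out held 0 Fabp4 UMIs. Without the 4 cells Fabp4 gave 199 UMIs in THC and 62 in vehicle endothelial cells (log2 2.47). In lymphatic cells the medians were -0.08 over 6 arterial genes, -0.06 over 4 capillary genes and 0.68 over 5 venous genes. Without the cell placed by Flt4 alone, the first 2 turned, to 0.20 over 5 arterial genes and 0.27 over 3 capillary genes, and the venous median was 0.61.

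Of 17 measured endothelial transcription factors, 0 were at least 2-fold higher with THC and 3 at least 2-fold lower (median -0.25). These were Sox7, with 9 UMIs in THC and 48 in vehicle endothelial cells (log2 -1.66, interval -2.94 to -0.68), Sox17, with 7 in THC and 34 in vehicle endothelial cells (log2 -1.51), and Tcf4, with 35 in THC and 118 in vehicle endothelial cells (log2 -1.05, interval -1.65 to -0.51). Without the 4 cells that stood apart, Sox7 alone of these 3 was still at least 2-fold lower (log2 -1.22), Tcf4 had -0.57, and the median was -0.04 over 16 genes, with 2 at least 2-fold higher. Klf2, which responds to flow, gave 181 UMIs in THC and 351 in vehicle endothelial cells (log2 -0.27), and the sign turned without the 4 cells (log2 0.25, interval -0.05 to 0.54). Without the cell placed by Flt4 alone, the list's median in lymphatic cells was 0.002 over 15 genes, against -0.18 over 16 genes with it.

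Of 14 measured receptors and partners of vascular growth factors and Notch, 1 was at least 2-fold higher (Tek, above) and 0 lower, near the share of all genes, with a median of -0.11. With the 4 cells left out, 2 were higher and the median turned to 0.27. Tie1 gave 41 UMIs in THC and 62 in vehicle endothelial cells (log2 0.10, interval -0.51 to 0.68). Notch1 gave 24 UMIs in THC and 47 in vehicle endothelial cells (log2 -0.27), and the sign turned without the 4 cells (log2 0.07, interval -0.73 to 0.83). Among 16 junction and caveola genes, 0 were at least 2-fold higher and 1 was at least 2-fold lower (median -0.07). That was Gja4, with 5 UMIs in THC and 28 in vehicle endothelial cells (log2 -1.69, interval -3.53 to -0.41), and without the 4 cells 0 of 14 were past 2-fold. Cav1, the coat protein of caveolae, gave 171 UMIs in THC and 232 in vehicle endothelial cells (log2 0.25, interval -0.05 to 0.54).

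Leukocyte adhesion genes and chemokines differed in either direction. Of 14 measured genes, 4 were at least 2-fold higher with THC (Selp, Ackr1, Cxcl9 and Cxcl1) and 3 at least 2-fold lower (Ccl2, Ccl7 and Cxcl12), with a median of 0.02. Each of the 4 higher genes was held mostly by 1 cell. A single THC blood vascular cell held 84% of the 149 Selp UMIs and the 25 Ackr1 UMIs, and 67% of the 153 Cxcl1 UMIs were in the THC cell with the fibroblast genes. In endothelial cells other than the 4 that stood apart, 2 of 12 measured genes were higher and 2 lower (median -0.20), and Cxcl1 had a log2 ratio of -0.11 and Cxcl12 -0.41. In lymphatic cells Cxcl1 gave 36 UMIs with THC and 90 with vehicle (log2 -0.29). Icam1, which holds leukocytes on the vessel wall, gave 246 UMIs in THC and 486 in vehicle endothelial cells (log2 -0.29, interval -0.52 to -0.07). In lymphatic cells it ran from 0 to 84.8 UMIs per 10000 with THC (median 15.9) and from 0 to 88.6 with vehicle (median 22.2).

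Vascular tone genes had a median of 0.08 over 7 measured genes, with 0 at least 2-fold higher and 1 lower (Adm, adrenomedullin, with 2 UMIs in THC and 18 in vehicle endothelial cells). Ece1, which activates endothelin, gave 97 UMIs in THC and 131 in vehicle lymphatic cells (log2 0.59). Clotting and fibrinolysis genes had a median of -0.61 over 6 measured genes, with 0 higher and 2 lower, Procr (the protein C receptor) with 4 UMIs in THC and 25 in vehicle endothelial cells, and Entpd1 with 3 in THC and 17 in vehicle endothelial cells. The vascular tone median without the 4 cells was 0.40 over 5 genes with 0 past 2-fold, and the clotting median was -0.41 over 5 genes with 1 lower. Adm, at 2 UMIs in THC and 16 in vehicle endothelial cells (log2 -1.92), was then no longer measured. Nor was Entpd1, at 3 in THC and 15 in vehicle endothelial cells (log2 -1.35). In lymphatic cells the clotting median was -0.06 over 5 genes. Lipid uptake genes had a median of 0.25 over 7 genes, with 1 higher, Fabp5, at 12 UMIs in THC and 8 in vehicle endothelial cells. In lymphatic cells the median of 4 genes was -2.18, or -0.87 with Fabp4 and Scarb1, both at 0 in THC lymphatic cells, set to 3 UMIs. Of the vehicle Fabp4 UMIs there, 85 of 86 were in the cell placed by Flt4 alone, and without it 2 genes of the list were measured in lymphatic cells, with 0 past 2-fold. Over all endothelial cells without the 4 cells, 2 of 6 lipid uptake genes were at least 2-fold higher, with a median of 0.63. Fabp4 was among them, and the vehicle cells left out had held 85 and 91 of its 238 vehicle UMIs. Basement membrane genes had a median of 0.04 over 12 genes, with 0 past 2-fold in either direction, also without the 4 cells (median 0.30). In lymphatic cells 3 of 12 were at least 2-fold lower (Sparc, Sparcl1 and Igfbp7), and 0 of 10 measured without the cell placed by Flt4 alone.

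Of 16 AP-1 and immediate early genes, 0 were at least 2-fold higher with THC and 1, Ier5, at least 2-fold lower, with 11 below 0 and a median of -0.34. The count of 1 is near the 5.46% of all genes that were lower, and the median was -0.21 without the 4 cells that stood apart. In lymphatic cells 3 of 16 were at least 2-fold lower, against 5.37% of all genes there, with 12 below 0 and a median of -0.40. Without the cell placed by Flt4 alone, 3 of 16 were still lower and the median was -0.26. Junb gave 432 UMIs in THC and 1267 in vehicle endothelial cells (log2 -0.86, interval -1.03 to -0.71). Egr1 ran from 0 to 107 UMIs per 10000 in THC lymphatic cells (median 11.8) and from 0 to 185 in vehicle lymphatic cells (median 24.8), ranges that overlapped. Of 14 heat shock chaperones, 1 was at least 2-fold higher, Cryab, whose 57 THC UMIs all lay in the cell with the fibroblast genes, and 1 lower, Bag3, with 17 UMIs in THC and 57 in vehicle endothelial cells. The list's median was -0.04 in endothelial cells and -0.46 over 13 genes without the 4 cells, with 0 higher and 1 lower. The 1 lower gene was then Hspb1, a small heat shock protein, with 135 UMIs in THC and 478 in vehicle endothelial cells (log2 -1.02). Bag3 was no longer past 2-fold (log2 -0.97). In lymphatic cells 11 of 13 chaperones were below 0 and the median was -0.41. Hspb1 gave 87 UMIs in THC and 388 in vehicle lymphatic cells (log2 -1.13). Hspa1a and Hspa1b are near-identical copies whose reads the counting could split.

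Of 14 measured interferon-stimulated genes, 1 was at least 2-fold higher with THC (Gbp2) and 5 at least 2-fold lower, with a median of -0.51. Without the 4 cells that stood apart, 1 of 13 was higher and 3 were lower, with a median of -0.34, and Iigp1 and Ifit1 were no longer past 2-fold. The 5 were Irf7, Psmb9 and Psmb8 (subunits of the immunoproteasome), Iigp1 and Ifit1. Iigp1, an immunity-related GTPase, gave 24 UMIs in THC and 84 in vehicle endothelial cells (log2 -1.10, interval -1.84 to -0.45). Psmb8 gave 8 UMIs in THC and 30 in vehicle endothelial cells (log2 -1.16). Ifitm3, the most abundant of the list, gave 532 UMIs in THC and 983 in vehicle endothelial cells (log2 -0.20). In lymphatic cells the median of 6 interferon-stimulated genes was -0.25. MHC class I genes had a median of -0.19 over 7 genes, or 0.04 without the 4 cells, with 0 past 2-fold in either direction. MHC class II genes gave 113 UMIs in THC and 5 in vehicle endothelial cells, and 61 of the 68 THC UMIs of Cd74 were in the cell with B lymphocyte genes. NF-kappaB feedback genes had a median of -0.03 over 9 genes, or 0.39 over 7 without the 4 cells, with 0 past 2-fold, and glucocorticoid-responsive genes a median of 0.04 over 8 genes, with Mt1 at least 2-fold higher and Sgk1 at least 2-fold lower. Mt1, a metallothionein, gave 26 UMIs in THC and 7 in vehicle endothelial cells, and 69.2% of the THC UMIs and 85.7% of the vehicle UMIs lay in 1 cell each.

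**Figure D5:**
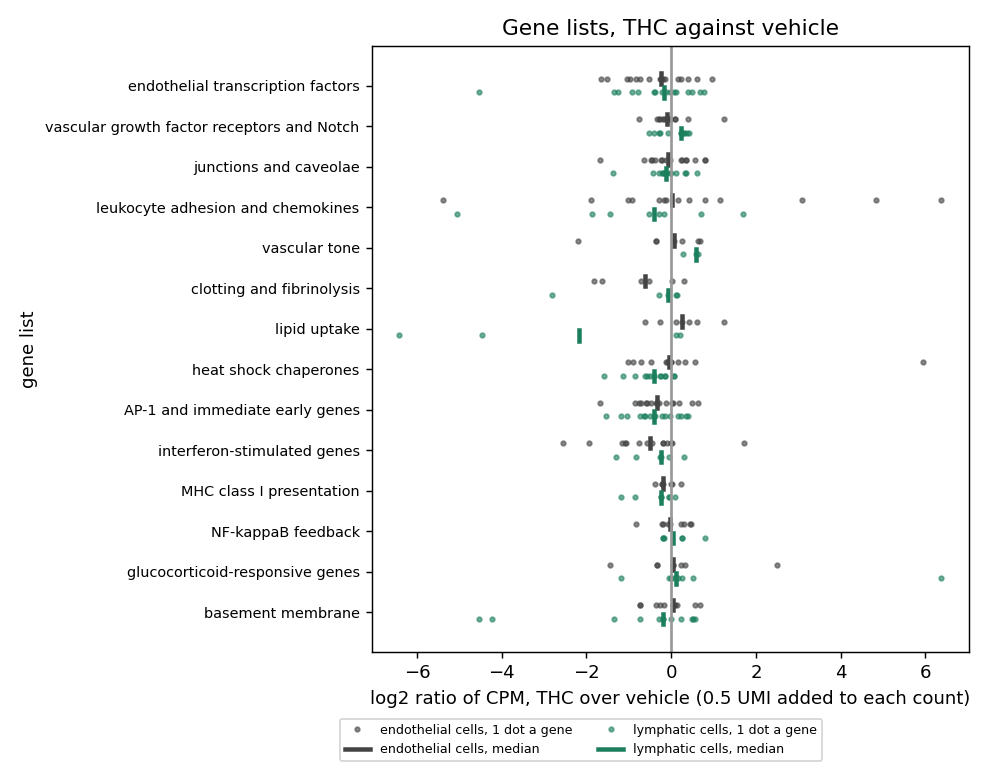
Each dot is a gene of a pathway list, placed by its log2 ratio of CPM, THC over vehicle, in all endothelial cells (black) or in lymphatic cells (green), with 0.5 UMI added to each count and bars at the list medians. Medians lie between -0.61 and 0.25 in endothelial cells, and the lymphatic lipid uptake bar at -2.18 is the farthest from 0.

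Receptors of THC were not detected at this depth in more than trace. Cnr1, the cannabinoid receptor of neurons, gave 0 UMIs in endothelial cells, which allows up to 25.7 CPM with THC and 16.0 CPM with vehicle. Cnr2, the receptor of immune cells, gave 1 UMI in THC endothelial cells and 0 in vehicle endothelial cells, and Gpr55 gave 0 in both. Of 18 genes of the endocannabinoid list, 2 reached 20 UMIs. Mgll, which breaks down the endocannabinoid 2-arachidonoylglycerol, gave 38 UMIs in THC and 90 in vehicle endothelial cells (log2 -0.55, interval -1.14 to 0.01). It was found in blood vascular cells, with 431 CPM in THC and 768 CPM in vehicle cells, and in lymphatic cells, with 272 CPM in THC and 421 CPM in vehicle cells. No gene of the 20 for sterol and fatty acid synthesis reached 20 UMIs, the list summing to 35 UMIs in THC and 57 in vehicle endothelial cells.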

How the data were processed

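The deposited matrices hold raw UMI counts per gene and barcode, made by the authors with Cell Ranger 3.0.2, per the file headers. Per the submitters' processing notes, bcl2fastq and Seurat were used as well, with no version named. Genes and barcodes come from deposited name tables of other kind, which hold no measurement. Neither a genome build nor an annotation is named in these sources, so no coordinates are printed.

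The THC file held all 737280 barcodes of the chemistry, of which 106628 had a UMI. The vehicle file held 973 barcodes, the lowest with 502 UMIs, so cells had been called in it before deposit. The same limits were set on both (1000 UMIs, 200 genes, 15% mitochondrial), leaving 436 THC cells with 4956950 UMIs and 703 vehicle cells with 6533055 UMIs. No doublet caller was run. Doublets were instead limited by the Epcam and Ptprc limit, and cells with at least 10 UMIs of another class's list were given apart. Comparison classes were epithelial (at least 2 Epcam UMIs and at most 1 of Ptprc), immune (at least 2 Ptprc UMIs and at most 1 of Epcam) and stromal (at least 5 UMIs of Col1a1, Col1a2, Dcn, Des and Acta2, with at most 1 of Epcam and Ptprc).

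UMIs were summed per library and class and scaled to CPM. Ratios add 0.5 UMI to each count and need 20 UMIs over both libraries. Their intervals are exact conditional Poisson intervals and cover counting error only. They were run on simulated counts that were themselves drawn as Poisson. That run checks the calculation and cannot show how the intervals hold where UMIs gather in few cells. Cells are not replicates and each group is 1 library, so no edgeR or DESeq2 test was run on the counts. edgeR 4.0.16 gave TMM factors, and Python 3.11.15 with numpy 2.4.6 and scipy 1.17.1 the rest. A ratio against 0 is a bound from 3 UMIs over the group.

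Named genes for THC against vehicle were the 10 highest and the 10 lowest by the interval bound nearest to 0. They were found in at least 10% of a library's endothelial cells, with at most 50% of UMIs in 1 cell where higher. Their endothelial CPM was not below 50% of that elsewhere. Rule genes, mitochondrial, ribosomal, haemoglobin, immunoglobulin, T cell receptor, sex-linked and unnamed genes were left out. Identity genes were the 10 highest by the lower ratio of the libraries. Ccl7, Cd74 and other genes outside this rule come from 29 lists. The members, the lists and this rule were chosen with earlier results of these data known. Alternatives changed the cell limits, the scaling, the gene filter, the added UMI, the averaging, thinning to 1000 UMIs and the mix of cells.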

Additional observations from a re-analysis of the deposited data

How the results depend on the processing

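No paired analysis was possible because each group was 1 library and the labels give no replicate numbers. The shares of endothelial and lymphatic cells moved by less than their counting error under every cell limit tried. Against 98 genes at least 2-fold higher and 140 lower with THC, there were 17 and 30 with at least 50 UMIs a gene, 2280 and 1530 with no filter beyond 1 UMI, 10 and 22 with cells thinned to 1000 UMIs, and 55 and 80 in blood vascular cells only, where fewer genes or UMIs were left or more were admitted. The mean of per-cell CPM gave 151 higher, and leaving out the richest cell of each gene gave 224 lower; the cause was not tested. Leaving out the 4 cells that stood apart gave 117 higher and 86 lower, and lymphatic cells without the cell placed by Flt4 alone gave 63 and 77. Every choice that leaves out cells that stood apart was made after seeing the data. Of the identity counts, 383, 100 and 68, at least 50 UMIs a gene gave 202, 53 and 26, thinning gave 81, 33 and 11, and leaving out the richest cell gave 196 lymphatic genes. The lipid uptake median, 0.25, was -0.094 in blood vascular cells, -0.35 with the same mix of cells and -2.18 in lymphatic cells. Lars2 was at -0.14 and Sbno2 at -0.26 in blood vascular cells, and the median of endothelial transcription factors was 0.0019 in lymphatic cells without the cell placed by Flt4 alone; the cause was not tested. Of list medians under the alternatives, 207 stayed within 0.2 on the log2 scale, 61 moved further and 4 of those at 0.2 or more reversed; of named genes, 356 stayed within their interval, 30 left it and 2 reversed; and of shares and gene counts, 85 kept within their limits, 15 were lower and 5 higher. With 116743 UMIs in THC and 188068 in vehicle endothelial cells, genes under 20 UMIs could not be compared.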
